A study of Sus scrofa with 3 samples.

Results

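Genes of lipid droplets, of the lipases that empty them and of fatty acid uptake were followed in the kidney of Chinese Wuzhishan pigs, a miniature breed, aged 6 to 7 months and fed a diet high in fat and cholesterol. The 10 genes were chosen by symbol, as PLIN2, PLIN3, PLIN4, PLIN5, LIPE, PNPLA2, MGLL, LPL, CD36 and FABP3. Of the 34570 rows of the count table, 8 carried one of these symbols. PLIN5 was found under its older symbol LSDP5 and is described beside the 8 without being counted among them, and LPL was not analysed here. All 8, and the PLIN5 row, passed the filter on low values that left 15472 genes for comparison.

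The groups were castrated males given testosterone (CMT), castrated males (CM) and intact males (IM), all on the same diet. Each library was made from a pool of RNA of 3 pigs, so that 3 libraries stand for 9 pigs. Total counts were 13601475 in CMT, 18503537 in CM and 16459771 in IM. Levels are given as CPM, counts scaled to library size, here after TMM scaling, a correction of library size for composition. The design text speaks of triplicates, whereas the labels describe pools and the count table holds 1 column for each group. Single libraries give no estimate of the spread between pigs, so no p-value is given, and no difference has a replicate check. A call, higher or lower, required all of the exact 95% interval of the fold to lie past 2-fold. That interval stands in parentheses after each fold and covers counting error only. The tissue is a mixture of cell types, in which fewer cells of a type and less RNA per cell cannot be told apart. The 3 comparisons share libraries, so that a high or low value in CM enters both CM against IM and CMT against CM.

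Lipid droplets are stores of triglyceride and cholesteryl ester under a coat of perilipins, which control the access of lipases. PNPLA2 (adipose triglyceride lipase) removes the first fatty acid of a triglyceride, LIPE (hormone-sensitive lipase) acts on the resulting diacylglycerol, and MGLL (monoglyceride lipase) releases the last fatty acid. CD36 takes up long-chain fatty acids at the plasma membrane, FABP3 carries them in the cytosol, and lipoprotein lipase frees them from lipoproteins in capillaries. The proximal tubule of the kidney draws much of its energy from fatty acid oxidation.

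PLIN4 and, by at most 1.15-fold, MGLL were highest in CM, whereas PLIN2, LIPE, CD36 and FABP3 were lowest there. CMT and IM were not alike for all of these genes. CMT over IM was 1.82-fold (1.38 to 2.41) for LIPE, 1.41-fold (1.18 to 1.68) for PLIN2 and 0.868 (0.780 to 0.965) for FABP3. Called between CM and IM were PLIN4, which was 3.18-fold higher (2.69 to 3.77) in CM, and FABP3, which was 2.32-fold lower (2.06 to 2.61). Called between CMT and CM were LIPE, 3.52-fold higher (2.53 to 4.95) in CMT, PLIN2, 2.62-fold higher (2.14 to 3.23), and PLIN4, 3.88-fold lower (3.19 to 4.76). None of the 8 was called between CMT and IM.

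Against all compared genes, 2 of the 8 (1 higher, 1 lower) were called in CM against IM, where 2.71% of 15472 genes were called, 1.2% higher and 1.52% lower. In CMT against CM, 3 of the 8 (2 higher, 1 lower) were called, where the share of all compared genes was 2.95%, with 1.84% higher and 1.11% lower. In CMT against IM 0 of the 8 were called, against 1.5% of all compared genes, 0.905% higher and 0.595% lower. With the interval required to lie beyond 1.5-fold only, 3, 4 and 0 of the 8 were called in these comparisons, against 6.22%, 6.3% and 3.74% of the compared genes. The median absolute log2 fold of the 8 was 0.74 (CM against IM), 0.88 (CMT against CM) and 0.30 (CMT against IM), and that of all compared genes was 0.22, 0.23 and 0.19 in the same order. The signed medians of the 8 were -0.20, 0.45 and 0.25, as members lay on both sides of 0, and those of all compared genes were -0.0064, -0.0043 and -0.013.

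**Figure D1:**
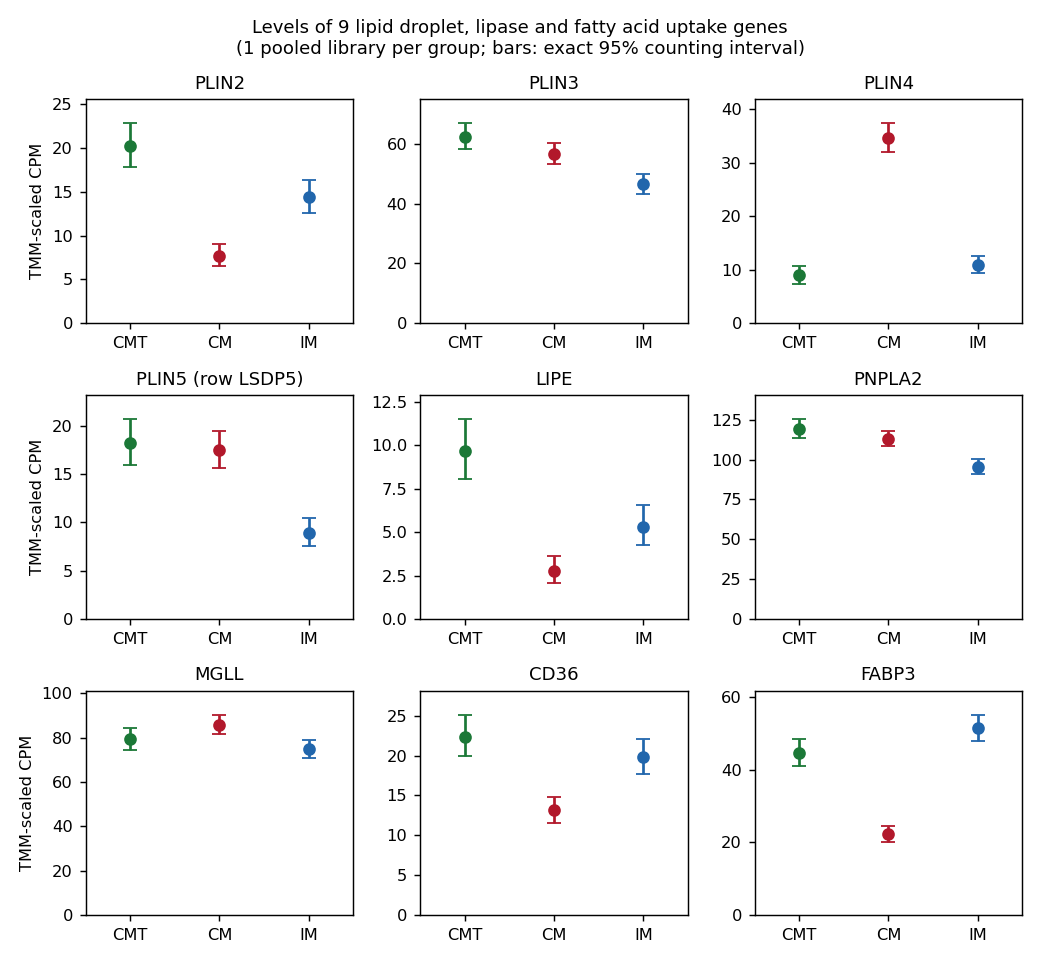
TMM-scaled CPM (y axis, from 0) of 9 genes in the CMT, CM and IM libraries (x axis), each point 1 pooled library with its exact 95% counting interval. PLIN4 is highest in CM, PLIN2, LIPE, CD36 and FABP3 are lowest in CM, and PLIN5 is lowest in IM.

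Among the perilipins, PLIN4 and PLIN2 lay on opposite sides in CM. PLIN4, a perilipin known mainly from adipocytes and muscle, had 118 counts (8.92 CPM) in CMT, 654 counts (34.6 CPM) in CM and 180 counts (10.9 CPM) in IM. The CM library was high and the others were near each other, with a fold of CMT over IM of 0.820 (0.645 to 1.04), whose interval holds 1. The log2 fold of CM over IM was 1.66, above that of 99.1% of the compared genes, and that of CMT over CM was -1.94, with 0.601% of the compared genes below it. In the RefSeq table the span of PLIN4 overlaps that of its neighbour HDGFL2. The strand setting is not given, so it is not known whether reads of the shared stretch were told apart, and their part in the PLIN4 counts was not tested. HDGFL2 had 1512, 1709 and 1884 counts in CMT, CM and IM, and was not high in CM.

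PLIN2, the perilipin that coats droplets in most cells and whose protein is degraded when not bound to them, had 268 counts (20.2 CPM) in CMT, 146 counts (7.72 CPM) in CM and 238 counts (14.4 CPM) in IM. It was low in CM. Its level in CM was 1.86-fold lower (1.51 to 2.30) than in IM, short of the 2-fold rule. Its level in CMT was 1.41-fold that of IM (1.18 to 1.68). The log2 fold of PLIN2 in CMT over CM, 1.38, was above that of 98.1% of the compared genes.

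PLIN3, a perilipin found in the cytosol and on forming droplets, had 826 counts (62.4 CPM) in CMT, 1071 counts (56.7 CPM) in CM and 769 counts (46.4 CPM) in IM. It was called in no comparison, and its highest and lowest libraries differed by 1.34-fold (1.22 to 1.48). PLIN5, a perilipin of oxidative tissues that links droplets to mitochondria, had 241 counts (18.2 CPM) in CMT, 331 counts (17.5 CPM) in CM and 148 counts (8.94 CPM) in IM on its LSDP5 row. Here IM was the low library. CM lay above IM by 1.96-fold (1.61 to 2.39) and CMT above IM by 2.04-fold (1.65 to 2.52), neither of them called, while CMT over CM was 1.04 (0.877 to 1.23). PLIN5 therefore differed from PLIN4 in CMT: the count ratio of PLIN4 to PLIN5 was 0.490 in CMT against 1.98 in CM, 4.03-fold lower (3.10 to 5.27).

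The ratio of counts of a pair of genes within a library involves no scaling between libraries. PLIN4 over PLIN2 was 0.440 in CMT, 4.48 in CM and 0.756 in IM. This ratio was 5.91-fold higher (4.51 to 7.78) in CM than in IM, and 10.1-fold lower (7.61 to 13.6) in CMT than in CM. It was also lower in CMT than in IM, by 1.72-fold (1.27 to 2.32). The perilipin counts together gave 110 CPM in CMT, 116 CPM in CM and 80.6 CPM in IM. Of them PLIN4 made up 8.12% (6.77 to 9.65) in CMT, 29.7% (27.8 to 31.7) in CM and 13.5% (11.7 to 15.4) in IM. PLIN2 made up 18.4% (16.5 to 20.5) in CMT, 6.63% (5.63 to 7.75) in CM and 17.8% (15.8 to 20.0) in IM. The shares are of counts and are not corrected for transcript length, so they compare libraries and not genes.

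**Figure D2:**
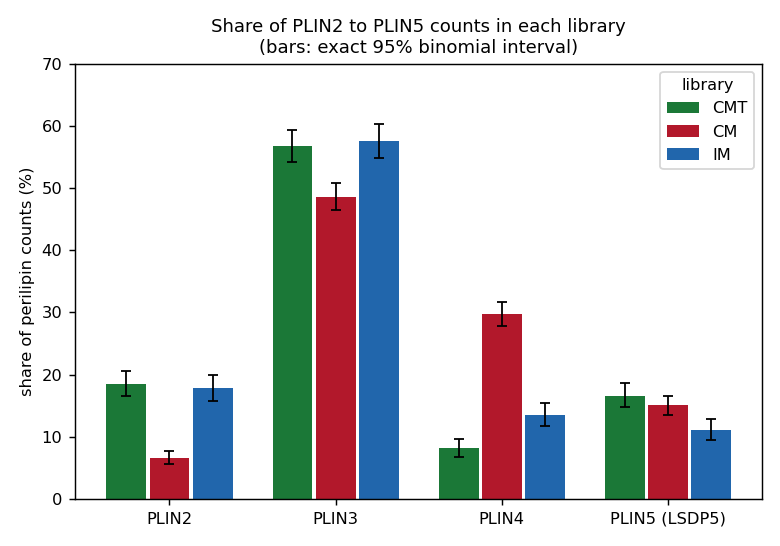
Share of the summed PLIN2, PLIN3, PLIN4 and PLIN5 counts taken by each gene (y axis, percent, from 0) in the CMT, CM and IM libraries (bars, left to right), with exact 95% binomial intervals. PLIN4 takes 29.7% in CM, against 8.12% in CMT and 13.5% in IM, and PLIN2 takes 6.63% in CM, against 18.4% and 17.8%.

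Of the 3 lipases, LIPE was the one called. It had 128 counts (9.67 CPM) in CMT, 52 counts (2.75 CPM) in CM and 88 counts (5.31 CPM) in IM. The libraries were thus ordered CMT, IM, CM. LIPE was 1.93-fold lower (1.36 to 2.78) in CM than in IM and 1.82-fold higher (1.38 to 2.41) in CMT than in IM, neither of which passed the rule. Of the 8 genes it had the fewest counts in CM and IM, PLIN4 had the fewest in CMT, and the intervals of LIPE were the widest.

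PNPLA2 had 1577 counts (119 CPM) in CMT, 2135 counts (113 CPM) in CM and 1577 counts (95.2 CPM) in IM. Its fold of CMT over CM was 1.05 (0.988 to 1.13), and its highest and lowest libraries differed by 1.25-fold (1.17 to 1.34). MGLL had 1050 counts (79.3 CPM) in CMT, 1622 counts (85.8 CPM) in CM and 1239 counts (74.8 CPM) in IM, with a fold of CM over IM of 1.15 (1.06 to 1.24). Neither gene was called in any comparison, and the farthest bound of any interval of either gene was 1.34-fold.

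The lipase genes differed from each other within libraries. LIPE took 4.65% (3.89 to 5.50) of the summed counts of the 3 lipase genes in CMT, 1.37% (1.02 to 1.79) in CM and 3.03% (2.44 to 3.72) in IM. The ratio of LIPE to PNPLA2 counts was 3.33-fold higher (2.38 to 4.72) in CMT than in CM, and 2.29-fold lower (1.60 to 3.31) in CM than in IM. The ratio of LIPE to PLIN2 counts, by contrast, had an interval that holds 1 in each comparison: 1.34 (0.904 to 2.01) for CMT over CM, 1.29 (0.924 to 1.81) for CMT over IM and 0.963 (0.631 to 1.46) for CM over IM. These intervals do not show that LIPE and PLIN2 moved alike.

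Of the genes of fatty acid uptake and transport, FABP3 and CD36 were both lowest in CM. FABP3, the heart-type fatty acid binding protein, had 592 counts (44.7 CPM) in CMT, 420 counts (22.2 CPM) in CM and 853 counts (51.5 CPM) in IM. CM was low. CMT over CM was 2.01-fold (1.77 to 2.29), not called, and CMT lay below IM by 1.15-fold (1.04 to 1.28). The call of FABP3 in CM against IM is close to the rule, since with a 99% interval its lower bound was 1.99-fold and the call was lost.

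CD36 had 296 counts (22.4 CPM) in CMT, 248 counts (13.1 CPM) in CM and 328 counts (19.8 CPM) in IM. It was 1.51-fold lower (1.28 to 1.79) in CM than in IM and 1.70-fold higher (1.44 to 2.03) in CMT than in CM, without a call. CMT over IM was 1.13 (0.961 to 1.33). FABP3 differed more than CD36 between CM and IM, the ratio of their counts being 1.54-fold lower (1.25 to 1.89) in CM. Between CMT and CM that ratio was 1.18 (0.952 to 1.46), an interval that holds 1.

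**Figure D3:**
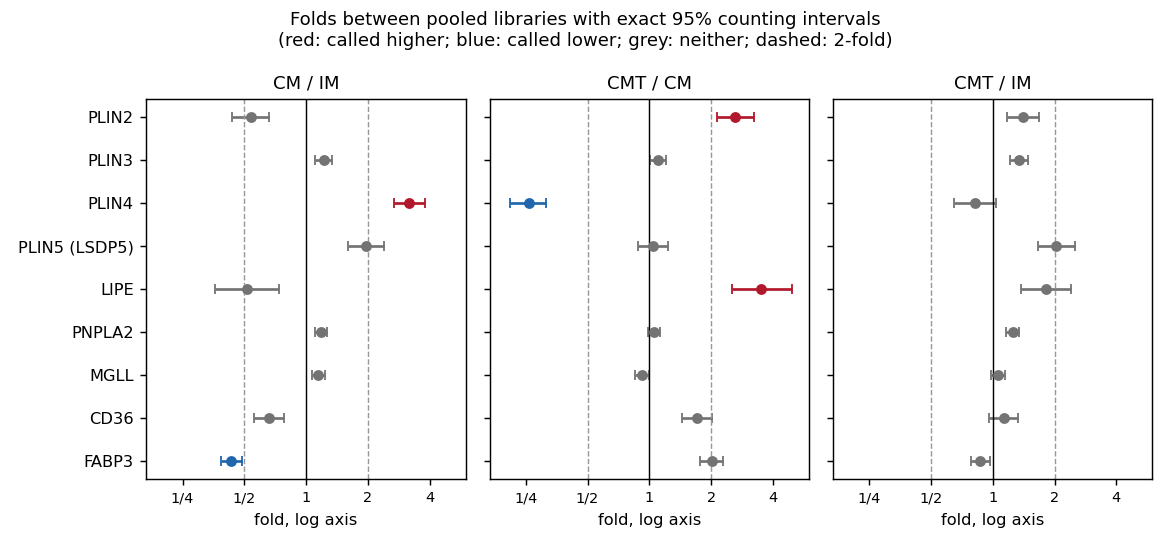
Fold of CM over IM, CMT over CM and CMT over IM (x axes, log scale) for 9 genes (rows), with exact 95% counting intervals. Red points are called higher, blue points lower, grey points neither, and dashed lines mark 2-fold: PLIN4 is red in CM over IM and blue in CMT over CM, LIPE and PLIN2 are red in CMT over CM, FABP3 is blue in CM over IM, and the panel of CMT over IM holds grey points alone.

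**Figure D4:**
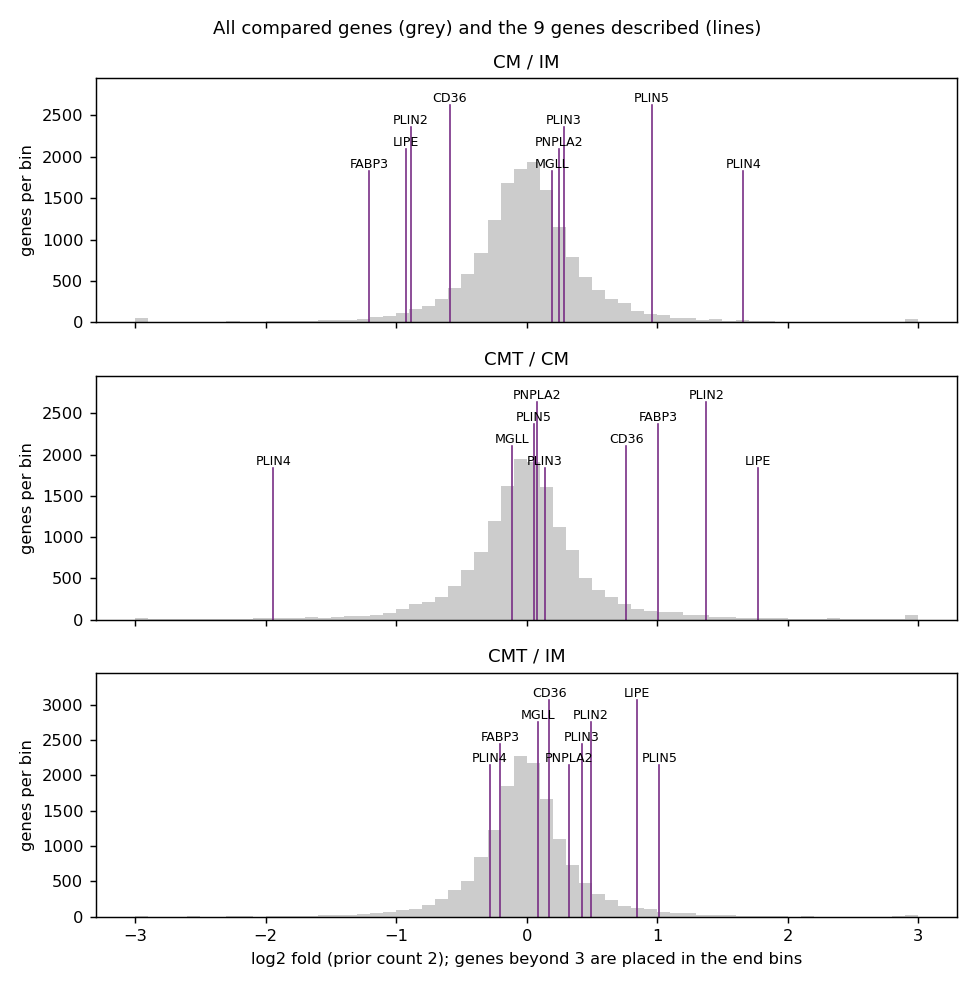
Number of compared genes (grey, y axis) per bin of log2 fold (x axis) in each comparison, with lines at the log2 folds of the 9 genes. PLIN4 stands at 1.66 in CM over IM and at -1.94 in CMT over CM, while PLIN3, PNPLA2 and MGLL lie within the main body of genes in both.

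The droplet and lipolysis genes outside the 10 were called at 4% in CM against IM and in CMT against CM, beside 2.71% and 2.95% of all compared genes. Of 31 listed, 28 had a row and 25 were compared. PNPLA3, a lipid droplet protein related to PNPLA2, was the only gene called there, 2.60-fold higher (2.15 to 3.17) in CM than in IM and 6.16-fold lower (4.56 to 8.48) in CMT than in CM. It had 48 counts in CMT, 422 in CM and 142 in IM, so that CM was the high library, as for PLIN4. Unlike PLIN4, whose interval holds 1 there, PNPLA3 was also lower in CMT than in IM. The difference was 2.36-fold (1.69 to 3.35) and was not called. In CMT against IM 0 of the 25 were called, beside 1.5% of all compared genes. The list's median log2 fold was -0.08 for CM over IM, 0.15 for CMT over CM and 0.07 for CMT over IM. ABHD5, the activator of PNPLA2, had 94 counts (7.10 CPM) in CMT, 108 counts (5.71 CPM) in CM and 127 counts (7.67 CPM) in IM. Scaled, it was lowest in CM, with a fold of CM over IM of 0.745 (0.571 to 0.970). G0S2, an inhibitor of PNPLA2, had 76 counts (5.74 CPM) in CMT, 77 counts (4.07 CPM) in CM and 52 counts (3.14 CPM) in IM. Neither was called, the widest difference being that of G0S2 in CMT over IM, 1.83-fold (1.27 to 2.65).

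Genes around lipoprotein lipase were called in both directions. Of 34 listed genes of this enzyme and of fatty acid uptake, 33 had a row and 26 were compared. CM over IM gave 3 calls up and 1 down, CMT over CM 2 up and 2 down, and CMT over IM 1 up. These were 15.4%, 15.4% and 3.85% of the 26, beside 2.71%, 2.95% and 1.5% of all compared genes. The shares rest in part on GPIHBP1 and APOA5, which passed the filter through CM, the library where they were high. With a filter of mean 5 CPM, 20 genes of the list were left. Of these 2, 3 and 1 were called, beside 271, 300 and 132 of all genes passing that filter. The median log2 folds of the list were 0.05, 0.07 and 0.05. ANGPTL4, which inactivates lipoprotein lipase, had 4467 counts (337.5 CPM) in CMT, 697 counts (36.9 CPM) in CM and 1275 counts (77.0 CPM) in IM. It was highest in CMT, at 9.15-fold (8.45 to 9.93) over CM and 4.38-fold (4.12 to 4.67) over IM. In CM it was 2.09-fold lower (1.90 to 2.29) than in IM, short of a call. The order CMT, IM, CM is that of LIPE and PLIN2.

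GPIHBP1, which anchors lipoprotein lipase to capillary endothelium, had 10 counts in CMT, 42 in CM and 8 in IM and was 4.60-fold higher (2.13 to 11.3) in CM than in IM. APOA5, an apolipoprotein that favours the action of the enzyme, had 4 counts in CMT, 57 in CM and 9 in IM. It was 5.55-fold higher (2.73 to 12.7) in CM than in IM and 9.98-fold lower (3.69 to 37.9) in CMT than in CM. Both genes passed the filter on low values through their level in CM. APOC3, an apolipoprotein that inhibits lipoprotein lipase, had 307 counts in CMT, 1591 in CM and 249 in IM. It was 5.60-fold higher (4.89 to 6.42) in CM than in IM and 3.63-fold lower (3.21 to 4.11) in CMT than in CM. SLC27A2, a fatty acid transporter with acyl-CoA synthetase activity, was low in CM, with 4375 counts in CMT, 1682 in CM and 4736 in IM. It was 3.71-fold higher (3.51 to 3.93) in CMT than in CM and 3.21-fold lower (3.04 to 3.40) in CM than in IM. Its relatives SLC27A6, at 44.3 CPM in CMT, 49.5 CPM in CM and 26.1 CPM in IM, and SLC27A5, at 5.97, 9.68 and 4.83 CPM, were highest in CM, as was the acyl-CoA synthetase gene ACSL5, at 10.6, 15.4 and 9.42 CPM. Not all of the others were highest in CM. SLC27A3 (54.1, 48.2 and 69.5 CPM) was lowest in CM, as was ACSL1 (458, 427 and 468 CPM). SLC27A1 (36.9, 33.3 and 31.8 CPM) was highest in CMT and SLC27A4 (44.4, 46.6 and 48.3 CPM) in IM. ACSL3 (90.4, 113 and 101 CPM) and ACSL4 (38.5, 39.3 and 37.3 CPM) were also highest in CM. The intervals of SLC27A4 and ACSL4 hold 1 in each comparison. All of these relatives and synthetase genes were named after their values were seen, and none of them was called.

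Among regulators of lipid genes, 19 of 20 listed were compared. CREB3L3, a transcription factor of lipid genes in mouse liver, was the only one called in CM against IM, 10.3-fold higher (7.28 to 15.0) in CM. It had 667 counts in CMT, 411 in CM and 35 in IM. In CMT it stood above CM by 2.32-fold (2.05 to 2.63) and above IM by 23.8-fold (17.0 to 34.5), the only call of the list in CMT against IM. Its call in CMT against CM was lost with library totals alone, at 2.21-fold (1.95 to 2.503). PPARA, the nuclear receptor that drives fatty acid oxidation genes, had 76 counts in CMT, 343 in CM and 234 in IM. It was 3.16-fold lower (2.46 to 4.11) in CMT than in CM. SREBF1, a driver of fatty acid synthesis genes, had 411 counts in CMT, 1455 in CM and 581 in IM and was 2.48-fold lower (2.22 to 2.77) in CMT than in CM. In CM over IM it was 2.19-fold (1.99 to 2.42), not called, although library totals alone gave a call at 2.23-fold (2.02 to 2.46). PPARG, a receptor of adipocyte genes, had 29 counts in CMT, 69 in CM and 34 in IM and was not called. Calls made up 5.26% of the 19 regulators for CM over IM, 15.8% for CMT over CM and 5.26% for CMT over IM. The shares of all compared genes were 2.71%, 2.95% and 1.5% in the same order. In a list of 19, 1 call makes 5.26%. Median log2 folds of the regulators were 0.08 for CM over IM, -0.03 for CMT over CM and 0.05 for CMT over IM.

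**Figure D5:**
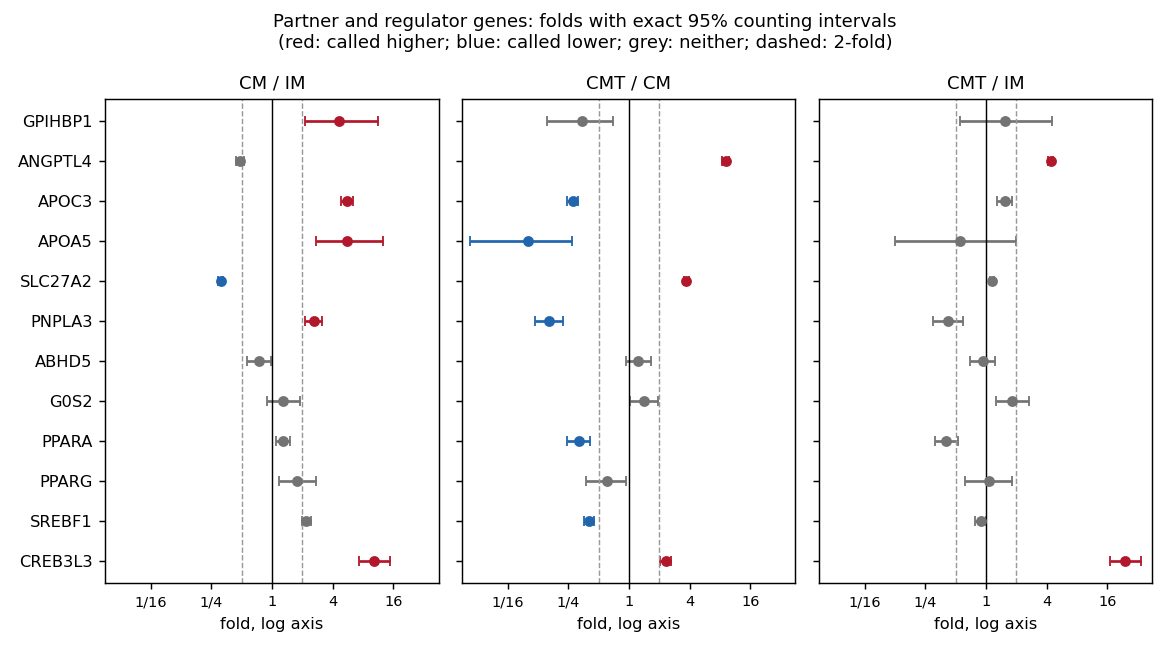
Fold of CM over IM, CMT over CM and CMT over IM (x axes, log scale) for 12 partner and regulator genes (rows), with exact 95% counting intervals. Red points are called higher, blue points lower, grey points neither, and dashed lines mark 2-fold: ANGPTL4 is 9.15-fold higher in CMT than in CM, while APOC3, APOA5, PNPLA3, PPARA and SREBF1 are lower.

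Markers of cells that could carry these genes were set beside them. Of 12 adipocyte markers with a row, ADIPOQ, LEP, THRSP and TUSC5 had 0 counts in all 3 libraries, which allows up to 0.227 CPM in CMT, 0.159 CPM in CM and 0.181 CPM in IM. PLIN1, the perilipin of fat cells, had 23 counts in CMT, 13 in CM and 17 in IM. The 12 markers summed to 14125 CPM in CMT, 5744 CPM in CM and 7279 CPM in IM, almost all of it from PCK1 and GPD1, which kidney itself expresses. Without these 2 genes the sums were 90.8, 103 and 80.5 CPM in the same order. AQP7 alone gave 52.1, 60.0 and 36.9 CPM of these sums. Of the 6 adipocyte markers compared, PCK1 was the only one called, higher in CMT than in CM by 2.54-fold (2.52 to 2.56). That was 16.7% of the 6, beside 2.95% of all compared genes. In CM against IM and CMT against IM 0 of the 6 were called, beside 2.71% and 1.5%. The list's median log2 folds were -0.43 for CM over IM, 0.37 for CMT over CM and 0.25 for CMT over IM. PLIN4, LIPE and CD36 are also fat cell genes. The defining markers ADIPOQ and LEP were at 0 in every library. PLIN1, at 1.74 CPM in CMT, 0.688 CPM in CM and 1.03 CPM in IM, had the order of LIPE and CD36. It was 2.53-fold higher (1.23 to 5.43) in CMT than in CM, not called. Its intervals for CM over IM and CMT over IM hold 1. CIDEC, at 8.54, 6.61 and 13.5 CPM, was lowest in CM. The part of fat cells in these results was not tested.

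FABP3 is also a heart and muscle gene. Of 15 muscle markers, MB and MYL2 had 0 counts in all 3 libraries, and 6 were compared. ACTC1, the cardiac actin, had 5506 counts in CMT, 505 in CM and 2588 in IM, and like FABP3 was lowest in CM. It was called in each comparison, 5.85-fold lower (5.32 to 6.45) in CM than in IM, and in CMT 15.6-fold higher (14.2 to 17.1) than in CM and 2.66-fold higher (2.54 to 2.79) than in IM. TNNI3, the cardiac troponin I, had 44 counts in CMT, 19 in CM and 57 in IM with a call in CM, 3.43-fold lower (2.01 to 6.10) than in IM, which was lost with library totals alone, at 3.37-fold (1.98 to 6.00). ACTA1, the skeletal muscle actin, had 28, 44 and 40 counts in CMT, CM and IM and was not called. Without ACTC1 the muscle markers summed to 66.9 CPM in CMT, 62.5 CPM in CM and 84.6 CPM in IM, and with it to 483, 89.2 and 241 CPM. Calls made up 33.3% of the 6 compared muscle markers for CM over IM, 16.7% for CMT over CM and 16.7% for CMT over IM. The shares of all compared genes were 2.71%, 2.95% and 1.5% in the same order. The compared muscle markers had median log2 folds of -0.39 for CM over IM, 0.06 for CMT over CM and -0.11 for CMT over IM. Their part in the FABP3 result was not tested.

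Endothelial cells and macrophages also use CD36. Of 9 compared endothelial markers 0 were called in any comparison. With 2.71%, 2.95% and 1.5% of all compared genes called, 0 among 9 cannot show whether endothelial genes were steadier than others. Their sums over 10 genes were 766 CPM in CMT, 751 CPM in CM and 785 CPM in IM. The median log2 folds were -0.03 (CM over IM), -0.01 (CMT over CM) and -0.10 (CMT over IM). PECAM1 had 2481, 3389 and 3402 counts in CMT, CM and IM, VWF had 661, 776 and 695, and KDR had 1797, 2526 and 2427. Macrophage markers summed to 212 CPM in CMT, 179 CPM in CM and 139 CPM in IM, so that the sum was lowest in IM, while CD36 was lowest in CM. CD163 had 29, 37 and 36 counts, CSF1R 346, 482 and 216, and AIF1 197, 255 and 229 in CMT, CM and IM. Scaled, CD163 (2.19, 1.96 and 2.17 CPM) and AIF1 (14.9, 13.5 and 13.8 CPM) were lowest in CM, like CD36, with folds whose intervals hold 1, and CSF1R (26.1, 25.5 and 13.05 CPM) was lowest in IM. Of 11 compared macrophage markers, MSR1, a scavenger receptor, was the only one called, higher in CMT than in IM by 3.05-fold (2.03 to 4.70), a call lost with library totals alone, at 2.95-fold (1.96 to 4.54), and with a filter of mean 5 CPM, which leaves the gene out. That call was 9.09% of the 11 in CMT against IM, beside 1.5% of all compared genes. In CM against IM and CMT against CM 0 of the 11 were called, beside 2.71% and 2.95%. The median log2 folds of the macrophage list were 0.22 (CM over IM), 0.15 (CMT over CM) and 0.34 (CMT over IM). The part of these cells in the CD36 result was not tested.

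Nephron markers, a check of the labelled tissue, were abundant in every library. The 14 proximal tubule markers summed to 21725 CPM in CMT, 22043 CPM in CM and 21283 CPM in IM. Their median log2 folds were 0.17 (CM over IM), -0.05 (CMT over CM) and 0.04 (CMT over IM). SLC22A6, an organic anion transporter, was the only one called, 3.25-fold higher (3.11 to 3.40) in CM than in IM. That was 7.14% of the 14, beside 2.71% of all compared genes. In CMT against CM and CMT against IM 0 of the 14 were called, beside 2.95% and 1.5%. With library totals alone SLC22A6 was also called in CMT, 2.15-fold lower (2.06 to 2.23) than in CM. The endocytic receptor genes LRP2 (1745, 3083 and 2510 counts) and CUBN (22921, 33712 and 25207) and the phosphate transporter SLC34A1 (19917, 29466 and 23931) were not called. The 13 distal tubule and collecting duct markers with a row summed to 9923 CPM in CMT, 9282 CPM in CM and 7758 CPM in IM, with median log2 folds of -0.03, 0.07 and -0.07. PVALB, of the distal convoluted tubule, was called lower than in IM both in CMT, 4.17-fold (2.503 to 7.35), and in CM, 5.11-fold (3.16 to 8.64). In each of these comparisons 7.69% of the 13 were called, beside 1.5% and 2.71% of all compared genes. In CMT against CM 0 of the 13 were called, beside 2.95%. UMOD (105591, 130566 and 94626 counts in CMT, CM and IM), SLC12A1 (4169, 6430 and 5195) and CALB1 (1012, 1255 and 1370) were not called.

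The genes whose pattern over the 3 libraries was most like that of a called gene were sought among 9613 genes with a symbol and at least 50 counts in each library, by the distance between centred log2 levels. For PLIN2 they were SERPINC1, the antithrombin gene (646, 344 and 574 counts in CMT, CM and IM, distance 0.033), RCL1 (distance 0.046) and PA2G4 (distance 0.049). For PLIN4 the nearest were farther away. They were INMT, a methyltransferase of indolethylamines (1107, 5092 and 1625 counts, distance 0.19), ANXA13, an epithelial annexin (154, 802 and 195 counts, distance 0.19), and CACNA1I, a calcium channel gene (85, 584 and 142 counts, distance 0.22). For LIPE they included CLCN4, a chloride/proton exchanger gene (144, 55 and 91 counts, distance 0.089), and CYP2C32, a cytochrome P450 of a family with close copies (distance 0.17). For FABP3 they were SMPD3, a neutral sphingomyelinase gene (74, 51 and 107 counts, distance 0.011), MCOLN2 (distance 0.041) and LPAR1 (distance 0.050). With 3 points a small distance is a description of these libraries.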

How the data were processed

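Raw counts, as deposited by the authors, were given per gene in 1 column per pooled library. RNA was extracted with TRIzol and libraries were made with an Ion Total RNA-Seq kit, per the labels' protocols, while the design text names an Illumina sequencer. FastQC is named in the submitters' processing notes. For the aligner, counter, strand setting, genome build and annotation, nothing is given in the sources used here, and coordinates are left out. No sequence and no transcript length was used, so levels of different genes are not compared.

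TMM factors (0.973 in CMT, 1.02 in CM, 1.01 in IM) came from edgeR 4.0.16 in R 4.3.3. edgeR's test was not run, because single libraries leave it no residual degrees of freedom. Genes with a mean of at least 1 CPM were compared across the whole table. Intervals are Clopper-Pearson intervals of the share of counts (scipy 1.17.1). Counted reads are not independent molecules, so intervals and floors (3 counts) cover counting error only. Log2 folds used a prior count of 2. The interval code was tested on simulated counts.

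Symbols were looked up in the RefSeq table of Sscrofa11.1 for 1796 rows, by gene number or by a unique older symbol. Of 160 genes in 9 lists (droplet and lipolysis genes, lipoprotein lipase and uptake genes, regulators, and markers of adipocytes, muscle, endothelium, macrophages, proximal tubule and distal tubule) 132 had a row, 19 were found by lookup and 9 were not used here. The genes and lists were chosen with earlier results of these data known. Named were the 10 genes and, per list and comparison, up to 4 called genes in each direction with the interval bound farthest from 1. Also named were the first 3 markers with a row of each cell type list, 7 fixed partner genes, and the 3 most alike genes of each called gene. GPD1, THRSP, TUSC5 and MYL2, and the genes beside PLIN4, were named after their values were seen. Alternatives changed the scaling, the interval, the fold, the filter, the prior count and the lookup. A gene that the rule on likeness of pattern also picked is not reported here.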

Additional observations from a re-analysis of the deposited data

How the results depend on the processing

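Under 4 other scalings the folds of the 9 genes moved by at most 4.75%, no call changed, and 1 direction turned: PLIN5 in CMT over CM was 0.991 with library totals alone. A 99% interval left 1 of the 8 called in CM against IM, FABP3 being lost, beside 354 of all 15472 compared genes. With an interval beyond 3-fold, 0 of the 8 were called in CM against IM and 1 in CMT against CM, which was PLIN4. All compared genes called numbered 420, 456 and 232 in CM against IM, CMT against CM and CMT against IM. They numbered 963, 974 and 579 beyond 1.5-fold, 199, 196 and 90 beyond 3-fold, and 271, 300 and 132 with a filter of mean 5 CPM. In the 3 lists of droplet, uptake and regulator genes 6, 8 and 2 were called, beside 2.71%, 2.95% and 1.5% of all compared genes. These lists held 25, 26 and 19 compared genes, LPIN1 being both a droplet gene and a regulator. With a filter of mean 5 CPM 4, 7 and 2 were called. Beyond 1.5-fold, 13 were called in CM against IM and 4 in CMT against IM, beside 6.22% and 3.74% of all compared genes. Beyond 3-fold, 3 were called in CM against IM and 5 in CMT against CM, beside 199 and 196 of all 15472 compared genes. These changes follow from the stricter or looser rule. Of 108 list medians under alternatives, 12 shifted by over 0.1 on the log2 scale. Among these the sign turned for the muscle markers in CMT against CM, at -0.13 with no filter against 0.06, for the adipocyte markers in CMT against IM, at -0.0021 with no filter and -0.0043 with a filter of mean 5 CPM against 0.25, and for the lipoprotein lipase and uptake list, at -0.09 in CM against IM with a filter of mean 5 CPM against 0.05. A further 5 medians close to 0 also changed sign, with shifts within 0.1. Counting PLIN5, an alternative chosen after seeing the data, changed no count of calls past 2-fold, but past 1.5-fold it gave 4 in CM against IM and 1 in CMT against IM. The other scalings of list genes, also added after seeing the data except library totals, made PCK1 called in CMT against IM with median-of-ratios factors, at 2.02-fold. Library totals alone made MLXIPL called in CMT against CM, 2.30-fold lower. No paired analysis was possible because each group has 1 library. Low counts widen the intervals of GPIHBP1, APOA5 and other genes with few counts, and no setting gives the spread between pigs.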

Other observations

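In the RefSeq table PLIN5, PLIN4 and HDGFL2 are direct neighbours on the same chromosome. PLIN3 is not among the 5 protein-coding genes on either side of PLIN4. Of the 10 nearest protein-coding genes around PLIN4, 7 were compared, and 0 of these 7 were called in any comparison. The largest share of all compared genes called was 2.95%, in CMT against CM. With shares this low, the count of 0 among 7 cannot show whether calls were rarer around PLIN4 than elsewhere. This window of 5 genes on each side was chosen after values over a wider one were seen, in which CREB3L3, farther along the chromosome, was called in each comparison, though with library totals alone not in CMT against CM. LRG1, on the far side of PLIN5, had 95 counts in CMT, 183 in CM and 153 in IM, with a fold of CM over IM of 1.05 (0.841 to 1.31). UBXN6, on the far side of HDGFL2, had 2171, 2517 and 2511 counts in CMT, CM and IM. Over the 7, the fold of CM over IM ranged between 0.664 (CHAF1A) and 1.96 (PLIN5), against 3.18 for PLIN4.

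CIDEC, a droplet fusion protein of fat cells, had 113 counts in CMT, 125 in CM and 224 in IM. It lay below IM in both castrated groups, by 1.58-fold (1.26 to 2.005) in CMT and by 2.05-fold (1.64 to 2.57) in CM, and was not called. AQP7, a glycerol channel, had 690 counts in CMT, 1134 in CM and 611 in IM, with a fold of CM over IM of 1.63 (1.47 to 1.80), also not called. Both were named after their values were seen.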
